A study of Mus musculus with 6 samples.

Results

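The genes described here are keratins, desmosome proteins and other transcripts of the epidermis, read out in T cells sorted from mouse skin. A list of 39 gene symbols was matched to the gene column of the deposited count table, and 37 of them had a row among the 15106 rows that name a gene. No row matched Krt1, a keratin of the upper epidermal layers, or Lor, which encodes loricrin, so neither was analysed here. The libraries came from regulatory T cells (Tregs, 4 libraries) and from effector T cells (Teffs, 2 libraries), both taken by flow sorting from skin of FOXP3-GFP mice aged 6 weeks. These mice carry a fluorescent reporter for FOXP3, the transcription factor on which Treg identity depends. The sources used here give neither the gates of the sort nor the strain, sex or number of animals behind a library. Without a statement that each library had its own animals, p-values measure only how these libraries scatter, and that scatter may be technical.

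Keratins are the intermediate filament proteins of epithelial cells, and each filament pairs a type I with a type II keratin. Cells of the basal epidermal layer make the pair encoded by Krt5 and Krt14, and switch to Krt1 and Krt10 as they move upward and differentiate. Desmosomes tie the filaments of neighbouring cells together, hemidesmosomes anchor basal cells to the basement membrane, and the cornified envelope seals the outermost cells. T cells are not built with these structures, although some of the proteins that form them, such as E-cadherin and the integrin alpha 6 chain, also act on or in lymphocytes.

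Counts in genes ranged from 5582022 to 7046685 in Tregs and were 7468778 and 4902126 in Teffs, and levels are given as counts scaled to a common library size with TMM factors (CPM). Values of a group follow its library numbers, Treg 1 to Treg 4 and Teff 1 to Teff 2. A single count corresponded to 0.132 to 0.194 CPM. T cell markers were present in every library: Cd3e was at 1100, 555, 588 and 1230 CPM in Tregs and at 1290 and 1110 CPM in Teffs. Treg 3 stood apart from the other Treg libraries in the number of genes with counts, at 83.4% of rows against 63.6% to 73.3%. Teff 1 and Teff 2 had counts in 87.4% and 78.7% of rows.

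The epidermal transcripts were spread unevenly over the libraries, and Treg 3 held the largest share of them. Their summed level was 639, 604, 3200 and 886 CPM in Tregs and 854 and 589 CPM in Teffs. Treg 3 therefore lay above every other library, and the remaining Treg libraries lay in the range of the Teffs or close to it. The ratio of group means, Treg over Teff, was 1.85, and without Treg 3 it was 0.989. Counts were found for 10, 10, 35 and 15 of the 37 genes in Tregs and for 31 and 23 in Teff 1 and Teff 2. The highest level lay in Treg 3 for 28 of the 37 genes (21 of the 26 that passed the filter on low counts), with 1 in Treg 2, 2 in Treg 4, 5 in Teff 1, 1 in Teff 2 and 0 in Treg 1. Over all 11775 genes tested, the highest level lay in Treg 1 to 4 for 19.8%, 20.8%, 20.3% and 15.1% and in Teff 1 and 2 for 12.5% and 11.6%. Of the 37 genes, 19 had no counts in Treg 1, Treg 2 and Treg 4, and 17 of these had counts in Treg 3. Among the 26 that passed the filter, 8 had no counts in Treg 1, Treg 2 and Treg 4. The same held for 657 of all 11775 genes tested (5.58%), of which 387 were highest in Treg 3. In bulk libraries such as these, fewer cells of a type and less RNA per cell cannot be told apart.

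**Figure D1:**
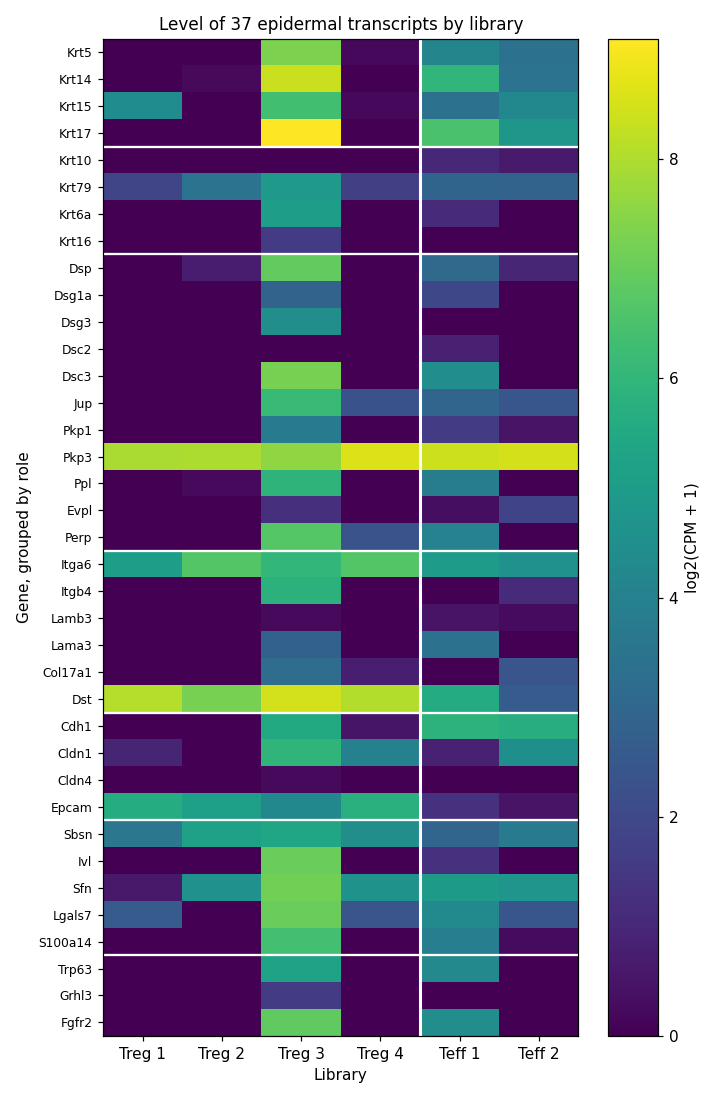
Level of the 37 genes in each library, as log2(CPM + 1) from dark (0) to yellow, with Tregs left and Teffs right of the white vertical line and white horizontal lines between roles. Treg 3 is bright for most rows, Teff 1 and Teff 2 less so, and a few rows (Pkp3, Dst, Itga6) are bright in every Treg library.

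Of the 37 genes, 7 had counts in all libraries: Dst, Epcam, Itga6, Pkp3, Sbsn, Krt79 and Sfn. The first 5 of these were grouped after their values were seen, so the split that follows is a description fixed by that choice. Krt79 and Sfn were left with the other genes and were highest in Treg 3. The 5 together reached 609, 570, 667 and 831 CPM in Tregs and 424 and 401 CPM in Teffs. They made up 95.3%, 94.3%, 20.8% and 93.7% of the summed level in Tregs, and 49.7% and 68% in Teff 1 and Teff 2. The other 32 genes summed to 30.1, 34.2, 2530 and 55.6 CPM in Tregs and to 429 and 188 CPM in Teffs. In these, both Teff libraries lay above 3 of the Treg libraries and below Treg 3.

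**Figure D2:**
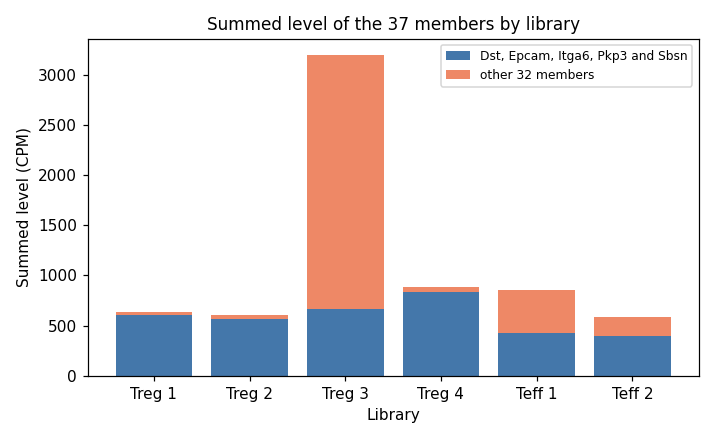
Summed level (CPM) of the 37 genes in each library, split into Dst, Epcam, Itga6, Pkp3 and Sbsn, grouped after their values were seen (blue), and the other 32 genes (orange). The blue part lies at 570 to 831 CPM in Tregs, while the orange part reaches 2530 CPM in Treg 3 and at most 429 CPM elsewhere.

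Basal and hair follicle keratins were abundant in Treg 3, moderate in both Teff libraries and almost missing from the other Tregs. Krt17, a keratin of hair follicles and of injured epidermis, was at 0, 0, 547 and 0 CPM in Tregs and at 88.7 and 27.5 CPM in Teffs. Krt14, the type I keratin of the basal layer, was at 0, 0.16, 329 and 0 CPM in Tregs and at 62.8 and 10.1 CPM in Teffs. Krt5, its type II partner, was at 0, 0, 157 and 0.143 CPM in Tregs and at 16.7 and 9.69 CPM in Teffs. For all of these the groups overlapped only because of Treg 3, since every other Treg library held at most 1 count. Krt15, a keratin of basal cells and of the follicle bulge, broke this pattern with 20.7 CPM in Treg 1, beside 0, 79.9 and 0.143 CPM in Treg 2, Treg 3 and Treg 4 and 9.66 and 17.8 CPM in Teffs. The log2 fold change, Treg over Teff, was 1.23 ± 2.95 (SE) for Krt17, 1.18 ± 2.90 for Krt14, 1.57 ± 2.97 for Krt5 and 0.87 ± 2.39 for Krt15. None passed edgeR's quasi-likelihood test (adjusted p = 1 for each). Without Treg 3 the fitted fold changes had the opposite sign, at -11.51 for Krt17, -8.95 for Krt14, -7.56 for Krt5 and -0.97 for Krt15, and the first 3 of these rest on Treg libraries with at most 1 count (adjusted p = 0.38 for each of the 3).

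Per kilobase of annotated exon, these keratins had the same order in Treg 3 and Teff 1 and another in Teff 2. On that scale, levels in Treg 3 were 353 CPM per kb for Krt17, 187 for Krt14, 71.5 for Krt5 and 45.2 for Krt15. In Teff 1 they were 57.2 CPM per kb for Krt17, 35.7 for Krt14, 7.60 for Krt5 and 5.47 for Krt15. Teff 2 had 17.7 CPM per kb for Krt17, 10.1 for Krt15, 5.75 for Krt14 and 4.41 for Krt5, so Krt15 stood second there. Counts of Krt5 made up 32.3% (exact 95% binomial interval 30.5% to 34%) of those of Krt5 and Krt14 together in Treg 3, 21% (17.8% to 24.5%) in Teff 1 and 49% (39% to 59.1%) in Teff 2. These intervals do not overlap, and they cover counting error only, because PCR copies are not independent molecules.

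Related keratins share coding sequence, and a read inside a shared run aligns to more than 1 gene. Entries aligned to several places stand in a row of their own, apart from the gene counts. The run below shows 1 stretch over which Krt14 and Krt17 are identical, with 20 bases on either side for contrast. They are coding bases of GENCODE release M21 transcripts (GRCm38), given 5′ to 3′, and the capitals mark the longest run that both genes, on chromosome 11, have in common, 71 bases.
Krt14: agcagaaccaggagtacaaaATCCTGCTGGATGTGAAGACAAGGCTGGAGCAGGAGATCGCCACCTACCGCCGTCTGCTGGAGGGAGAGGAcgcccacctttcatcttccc
Krt17: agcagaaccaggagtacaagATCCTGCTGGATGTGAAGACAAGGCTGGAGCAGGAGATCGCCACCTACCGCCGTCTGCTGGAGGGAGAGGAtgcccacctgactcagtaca
Of all stretches of 50 bases in its transcripts, 13.9% of Krt14, 3.99% of Krt17, 12.2% of Krt5, 57.2% of Krt6a, 37.6% of Krt16 and 35% of Dsg1a also occur in another gene, so that the levels of the last 3 of these are the least certain. The sources used here do not give the length of the reads.

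Krt10, Krt6a, Krt16 and Krt79 were each lower than Krt14 and Krt17 in Treg 3 and in both Teffs, whereas Krt79 exceeded those 2 in the other Tregs. Krt10, the type I keratin of differentiating cells, had 0 counts over the Tregs and 8 and 3 counts in Teff 1 and Teff 2. In Treg 3, 0 counts of Krt10 stood beside 894 of Krt5, which allows Krt10 a share of at most 0.412% of both (exact 95% binomial interval). In Teff 1 that share was 5.97% (2.61% to 11.4%). Krt6a, a keratin induced in injured epidermis and present in hair follicles, was at 32.8 CPM in Treg 3, against 1.19 CPM in Teff 1 and had no counts elsewhere. Krt16, its usual partner, had 12 counts in Treg 3 and none in the other libraries. Krt79, a keratin of the duct that joins follicle and sebaceous gland, was found in every library, at 2.71, 10.1, 29.3 and 2.28 CPM in Tregs and 6.62 and 6.40 CPM in Teffs (log2 fold change 0.77 ± 1.78).

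Of the 11 desmosome genes, 8 were highest in Treg 3, the exceptions being Pkp3, Dsc2 and Evpl. Dsp encodes desmoplakin, which links the desmosome to keratin filaments, and was at 0, 0.64, 119 and 0 CPM in Tregs and at 7.81 and 0.969 CPM in Teffs (log2 fold change 2.76 ± 3.22). Dsc3, a desmosomal cadherin of basal cells, was at 149 CPM in Treg 3, against 21.2 CPM in Teff 1 and had no counts in the other libraries. Perp, a membrane protein of desmosomes that is a target of p53 and p63, was at 0, 0, 103 and 3.99 CPM in Tregs and at 15.4 and 0 CPM in Teffs (log2 fold change 1.8 ± 3.17). Jup encodes plakoglobin, shared by desmosomes and adherens junctions, and was at 0, 0, 69.2 and 3.85 CPM in Tregs and 6.75 and 4.46 CPM in Teffs (log2 fold change 1.70 ± 2.86). In each of these Treg 3 was the highest library, and without it the fold changes of Perp and Jup were -2.49 and -2.09.

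Among the remaining desmosomal genes, Treg 3 was again the highest for most. Ppl, which encodes periplakin, was at 59.4 CPM in Treg 3, against 13.0 CPM in Teff 1, with 1 count in Treg 2 and none in the other libraries. The desmogleins Dsg3 and Dsg1a, adhesion molecules targeted by pemphigus autoantibodies, were at 21.4 and 6.49 CPM in Treg 3. Dsg3 had no counts in any other library, and Dsg1a had 2.91 CPM in Teff 1 alone. Pkp1, a plakophilin of the upper layers, was at 12.8 CPM in Treg 3 and at 1.99 and 0.388 CPM in Teffs. Evpl, which encodes envoplakin, and the desmocollin Dsc2 were highest in a Teff library instead, at 2.52 CPM in Teff 2 and 0.794 CPM in Teff 1.

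Pkp3, plakophilin 3, had one of the highest levels of the whole group in every library. It was at 247, 250, 190 and 392 CPM in Tregs and at 338 and 360 CPM in Teffs. Treg 3 was the lowest library for Pkp3, although it was the highest for 8 of the 11 desmosome genes. The groups overlapped, and the log2 fold change of -0.37 ± 0.38 was smaller than its spread. No exon of another annotated gene overlaps exons of Pkp3 (chromosome 7, 141078218 to 141090510, GRCm38), and none of its 50-base stretches occurs in transcripts of another annotated gene.

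Genes that anchor basal cells to the basement membrane split into 2 that lay above both Teffs in every Treg library and 4 that followed Treg 3 or were low. Dst encodes dystonin, a large cytoskeletal linker whose epithelial form (BPAG1e) sits in hemidesmosomes and whose other forms act in nerve and muscle. Dst was at 270, 150, 355 and 264 CPM in Tregs and at 47.3 and 5.23 CPM in Teffs. Each of the Tregs lay above both Teffs, with a mean of 260 ± 84 CPM (SD, n = 4) against 26.2 ± 29.7 CPM (SD, n = 2). The log2 fold change was 3.30 ± 0.90, which missed the threshold in edgeR's quasi-likelihood test (adjusted p = 0.633, unadjusted p = 0.00645) and passed in DESeq2 (log2 fold change 3.33 ± 0.82, adjusted p = 0.0044). Leaving out Treg 3 gave a log2 fold change of 3.13, and leaving out single libraries in turn spanned 2.43 without Teff 2 to 5.61 without Teff 1. The authors' deposited table gives Dst a log2 fold change of 3.23 with an FDR of 0.174. Counts per gene do not tell which form of dystonin was measured.

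Itga6, the integrin alpha 6 chain that pairs with beta 4 in hemidesmosomes and with beta 1 in other cells, T cells among them, was at 32.3, 100, 63.3 and 100 CPM in Tregs and at 31.1 and 23.1 CPM in Teffs. Treg 1 was only just above Teff 1, and the log2 fold change of 1.45 ± 0.74 did not pass (edgeR adjusted p = 1, DESeq2 adjusted p = 0.441). Its hemidesmosomal partner Itgb4 was found in Treg 3 at 56.8 CPM and in Teff 2 at 1.16 CPM and nowhere else. Col17a1, a transmembrane collagen of hemidesmosomes, was at 0, 0, 8.59 and 0.713 CPM in Tregs and at 0 and 4.26 CPM in Teffs (log2 fold change 0.13 ± 2.92). Of the laminin 332 chains, Lama3 was at 6.14 CPM in Treg 3, against 9.66 CPM in Teff 1 with no counts elsewhere, and Lamb3 had 1 count in Tregs and 4 in Teffs. The 50-base stretches of Dst and Itga6 occur in other annotated genes for 5.36% and 5.31%, and exons of genes on the opposite strand overlap 3.63% of the exonic bases of Dst. The sources used here do not say how strand was handled in counting.

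Among the adhesion genes, Epcam had the largest positive log2 fold change of the 18 genes for which one was given, and Cdh1 the most negative one, and neither passed in edgeR. Epcam encodes an epithelial cell adhesion molecule that in skin marks Langerhans cells and parts of the hair follicle. It was at 48.2, 33.8, 17.9 and 53.2 CPM in Tregs and at 1.46 and 0.388 CPM in Teffs. Each of the Tregs lay above both Teffs, and Treg 3 was the lowest of the Tregs. The means were 38.3 ± 15.9 CPM in Tregs (SD, n = 4) and 0.922 ± 0.756 CPM in Teffs (SD, n = 2), where the level rests on 11 and 2 counts. The log2 fold change of 5.33 ± 1.45 missed the threshold in edgeR's quasi-likelihood test (adjusted p = 0.628, unadjusted p = 0.00626) and passed in DESeq2 (log2 fold change 5.36 ± 0.96, adjusted p = 4.95e-06). Leaving out any single library gave log2 fold changes of 4.69 to 6.54. The authors' deposited table gives Epcam a log2 fold change of 5.26 with an FDR of 1.

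Epcam lies on chromosome 17 (87635979 to 87651129, GRCm38), and none of its exonic bases overlaps an exon of another annotated gene. Markers of Langerhans and dendritic cells, 10 of 12 with a row, summed to 3320, 2940, 774 and 11600 CPM in Tregs and to 1930 and 6270 CPM in Teffs. The highest of these were Cd74 and genes of MHC class II, which are not particular to Langerhans cells. Cd207, which encodes langerin, a marker of Langerhans cells, was not analysed here. Itgax and Zbtb46, markers of dendritic cells, had no counts in Treg 1, Treg 2, Treg 3 and Teff 2. Flt3, a receptor of dendritic cell development, had levels of 13.2, 4.64, 0 and 27.5 CPM in Tregs and of 0 and 2.13 CPM in Teffs. Mfge8, a secreted protein of Langerhans and other cells, lay above both Teffs in every Treg library, at 56.8, 50.7, 100 and 92.2 CPM in Tregs and 17.2 and 47.7 CPM in Teffs. Cd209a was at 24.7, 2.56, 35.2 and 256 CPM in Tregs and at 73.5 and 99.4 CPM in Teffs. Xcr1 was at 6.31, 23.7, 23.1 and 60.2 CPM in Tregs and at 29.4 and 30.2 CPM in Teffs. The groups overlapped for each of the 10 genes except Mfge8. The part of these cells in the level of Epcam was not tested.

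The promoter windows of Epcam and of Krt5 are shown because their transcripts had opposite patterns over the Tregs, lowest in Treg 3 for Epcam and highest there for Krt5. Each runs from 250 bases before to 50 bases after a RefSeq transcript start (GRCm38.p6) on the gene's own strand, chr17:87635729-87636028 (plus strand) for Epcam and chr15:101712856-101713155 (minus strand) for Krt5. Capitals mark matches on either strand to a TATA box (TATAAA), a GC box (GGGCGG), an AP-1 site (TGANTCA), an AP-2 site (GCCNNNGGC) or a grainyhead site (AACCGGTT), none of which overlapped here.
Epcam: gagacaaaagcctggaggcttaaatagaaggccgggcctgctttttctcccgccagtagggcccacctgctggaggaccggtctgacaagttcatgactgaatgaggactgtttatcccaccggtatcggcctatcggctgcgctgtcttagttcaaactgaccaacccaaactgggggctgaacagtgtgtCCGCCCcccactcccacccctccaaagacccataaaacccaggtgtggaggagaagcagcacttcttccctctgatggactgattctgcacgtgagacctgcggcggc
Krt5: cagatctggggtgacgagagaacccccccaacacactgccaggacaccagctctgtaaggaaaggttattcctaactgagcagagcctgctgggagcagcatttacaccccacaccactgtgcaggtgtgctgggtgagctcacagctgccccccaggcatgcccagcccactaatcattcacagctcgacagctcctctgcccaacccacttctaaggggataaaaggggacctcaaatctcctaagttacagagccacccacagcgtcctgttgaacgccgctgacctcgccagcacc
Epcam held 1 GC box and Krt5 none of these letters. Promoters were found for 19 of the 39 genes, with 21 windows in all. A GC box occurred in 8 of the 21 windows and in 35.7% of all 32851 windows, an AP-1 site in 4 and in 7.81%, a TATA box in 4 and in 13.6%, an AP-2 site in 1 and in 16.6%, and a grainyhead site in 0 and in 0.146%. These matches describe the sequence and are not binding sites.

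Cdh1 encodes E-cadherin, the adherens junction protein of epidermal cells, which binds the lymphocyte receptors CD103 and KLRG1. It was at 0, 0, 45.1 and 0.428 CPM in Tregs and at 57.9 and 49.6 CPM in Teffs. All Treg libraries lay below both Teff libraries. Teff 2 held about as much as Teff 1, while Krt14 and Krt5 were lower there and Krt15 and Cldn1 higher. The log2 fold change was -2.24 ± 2.36 (edgeR adjusted p = 1), and without Treg 3 it was -8.31 (adjusted p = 0.38), fitted on 3 counts in the remaining Tregs. Markers of gamma-delta T cells, 4 of 8 with a row, summed to 0, 0, 9.99 and 26.7 CPM in Tregs and to 61.6 and 24.6 CPM in Teffs. Cd163l1 and Blk among them were at 0 in every Treg library and had counts in both Teffs. Their part in the level of Cdh1 was not tested. Cldn1, a claudin of epidermal tight junctions, was at 0.902, 0, 61.4 and 15.1 CPM in Tregs and at 0.794 and 22.3 CPM in Teffs, and so did not follow Krt14, which was higher in Teff 1 than in Teff 2 (log2 fold change 0.75 ± 2.44). Cldn4 had 1 count in all, in Treg 3.

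**Figure D3:**
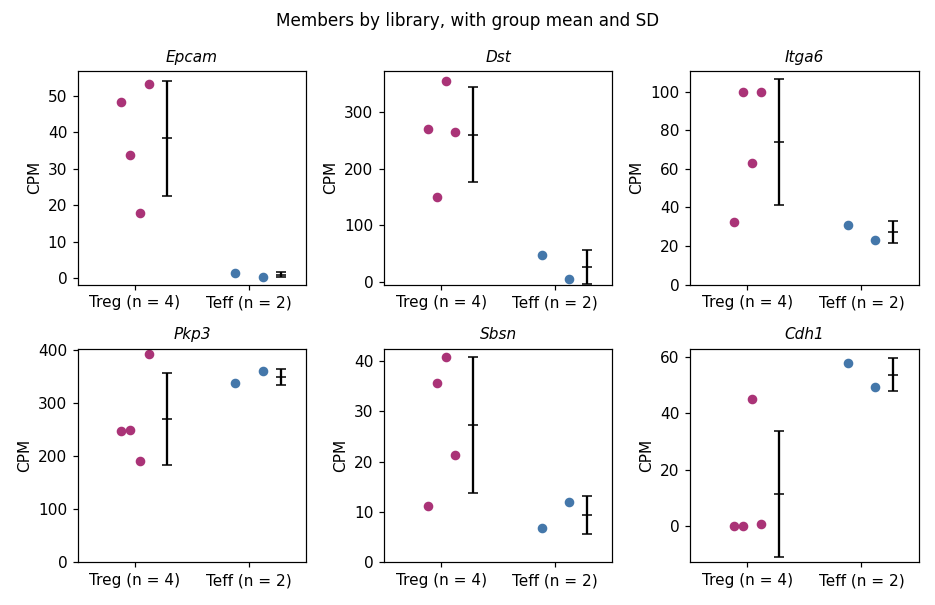
Levels (CPM) of Epcam, Dst, Itga6, Pkp3, Sbsn and Cdh1 in single libraries (points, Tregs left, Teffs right), with the group mean and SD beside them as a tick and bar. All Tregs lie above both Teffs for Epcam, Dst and Itga6 and below them for Cdh1, and the groups overlap for Pkp3 and Sbsn.

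Genes of differentiation and the cornified envelope ranged from restricted to widespread. Ivl, which encodes involucrin, an envelope precursor of the upper layers, was at 0, 0, 129 and 0 CPM in Tregs and at 1.46 and 0 CPM in Teffs, so that Treg 3 held 88.5 times the level of Teff 1, where it rests on 11 counts. S100a14, a calcium-binding protein of epithelia, was at 0, 0, 83.1 and 0 CPM in Tregs and at 13.8 and 0.194 CPM in Teffs (log2 fold change 1.57 ± 3.38). Lgals7, galectin-7 of stratified epithelia, was at 5.23, 0, 129 and 4.28 CPM in Tregs and at 19.5 and 4.46 CPM in Teffs (log2 fold change 1.53 ± 2.34). Sfn, the 14-3-3 sigma protein of epithelial cells, was at 0.541, 23.2, 141 and 24.7 CPM in Tregs and at 29.8 and 25.6 CPM in Teffs (log2 fold change 0.77 ± 1.57), and 15% of its 50-base stretches occur in other annotated genes, pseudogenes among them. Sbsn, which encodes suprabasin, was at 11.2, 35.7, 40.7 and 21.4 CPM in Tregs and at 6.75 and 12 CPM in Teffs. For Sbsn, Treg 2 was near Treg 3, Treg 4 lay between them and the Teffs, and Treg 1 was below Teff 2.

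Regulators of the epidermis were seen in Treg 3 and in Teff 1 but hardly elsewhere. Trp63 encodes p63, the transcription factor that establishes stratified epithelia, and was at 36.8 CPM in Treg 3, against 18.4 CPM in Teff 1 with no counts in any other library. The group means of Trp63 were both 9.20 CPM, with an SD of 18.4 in Tregs and 13.0 in Teffs. Fgfr2, whose epithelial splice form receives FGF7 and FGF10 from the dermis, was at 116 CPM in Treg 3, against 21.2 CPM in Teff 1 and likewise had no counts elsewhere. Grhl3, a grainyhead factor of barrier formation, had 12 counts in Treg 3 alone.

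The proportions of these transcripts in Treg 3 and Teff 1 were alike for some genes and far apart for others. Among the 21 genes with 50 or more counts in Teff 1, the level in Treg 3 over that in Teff 1 had a median of 6.02, and 15 genes lay between 4 and 11. Krt14 was 5.25 times higher in Treg 3 (exact 95% counting interval 4.74 to 5.82), Krt17 6.17 times (5.67 to 6.72), Krt5 9.40 times (7.79 to 11.4) and Dsp 15.3 times (11.7 to 20.3). Trp63 was only 2 times higher (1.61 to 2.50). Lama3, Cdh1 and Pkp3 were lower in Treg 3 than in Teff 1, at ratios of 0.635 (0.412 to 0.962), 0.779 (0.665 to 0.911) and 0.563 (0.524 to 0.605). Among genes with fewer counts in Teff 1, some had larger ratios or none. Ivl had 735 counts in Treg 3 and 11 in Teff 1, Cldn1 350 and 6, and Krt6a 187 and 9. Itgb4 had 324 and 0, and Dsg3 122 and 0. The minimum of 50 counts thus leaves out the widest differences. Others had no larger ratios, at 6.44 for Pkp1, 5.3 for Evpl, 2.23 for Dsg1a and 0.441 for Lamb3. These rest on 15, 2, 22 and 3 counts in Teff 1. Krt10 and Dsc2 had a few counts in Teff 1 and none in Treg 3. These ratios compare 2 libraries and not the conditions.

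Between the groups, none of the 26 genes that passed the filter on low counts was called by edgeR's quasi-likelihood test at an adjusted p under 0.05, where 5 of 11775 genes tested (0.0425%) were called, 4 higher (0.034%) and 1 lower (0.00849%) in Tregs. At an unadjusted p under 0.05 there were 2 of the 26, Epcam and Dst, against 4.73% of all genes tested. DESeq2 called the same 2 genes, against 2.08% of the genes to which it gave an adjusted p, and it gave none to 26 of the 37. Groups did not overlap with all Tregs higher for 3 of the 26 (Epcam, Dst and Itga6), against 5.51% of genes tested. They did not overlap with all Tregs lower for 1 of the 26 (Cdh1), against 9.49%. Of the 11 genes that failed the filter, Krt10 and Lamb3 also lay lower in all Tregs, at levels of a few counts. The median log2 fold change of the 26 was 1.32, beside 0.07 for all genes tested. Without Treg 3 the filter was applied anew and kept 16 genes, with a median of -1.04, beside 0.01 for all genes tested there. Krt5, Krt14, Krt17 and Cdh1, with almost no counts in the other Tregs, passed it through their counts in both Teffs. Others, such as Dsc3, Fgfr2 and Trp63, dropped out. The negative median thus partly follows from the filter and is not comparable with 1.32. The adjusted p was 1 for each of the 26 apart from Dst and Epcam. An exact permutation test of 4 against 2 libraries cannot go below p = 0.0667 (two-sided), so single genes were tested only in the fit over all genes.

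**Figure D4:**
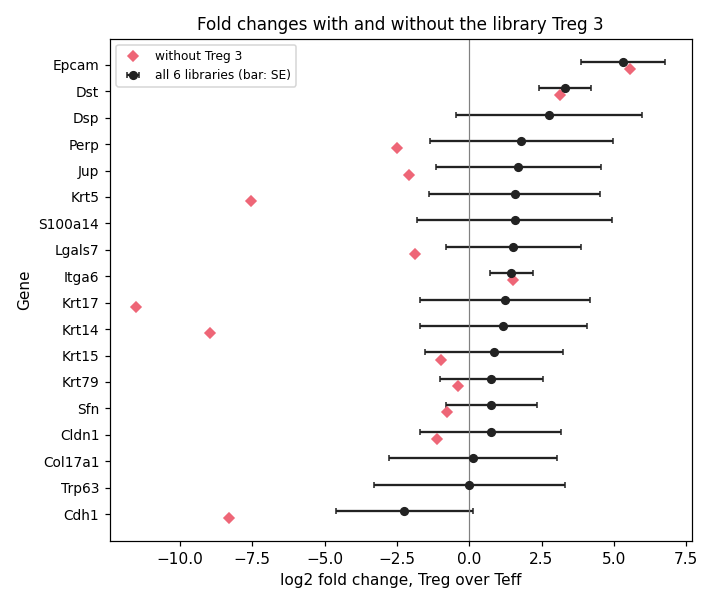
Log2 fold change, Treg over Teff, of 18 genes fitted on all 6 libraries (black points with SE) and without Treg 3 (red diamonds, absent where a gene no longer passed the filter). Epcam, Dst and Itga6 keep their place near 5.33, 3.30 and 1.45, and 10 of the 14 diamonds lie on the other side of 0 from their black point.

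Further epidermal, hair follicle and fibroblast genes were also highest in Treg 3 when summed, and those of several other skin cells were not. Further epidermal genes, 37 of 50 with a row, summed to 286, 121, 993 and 309 CPM in Tregs and to 221 and 92.6 CPM in Teffs. Of these 37, 25 were highest in Treg 3 and 26 had no counts in Treg 1, Treg 2 and Treg 4, and 0 of the 23 tested were called. Over all 11775 genes tested, 20.3% were highest in Treg 3 and 5.58% had no counts in Treg 1, Treg 2 and Treg 4. The 37 include genes that failed the filter on low counts, so these shares are not on the same footing. Serpinb5, the epithelial serpin maspin, was at 0, 0, 127 and 0 CPM in Tregs and 25.3 and 7.17 CPM in Teffs. Aqp3, a water and glycerol channel that lymphocytes also express, was at 119, 31.5, 78.4 and 191 CPM in Tregs and 42.4 and 21.5 CPM in Teffs, and Itga3 was likewise found in Treg libraries other than Treg 3.

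Hair follicle and sebaceous gland genes, 26 of 26 with a row, summed to 236, 20.2, 2210 and 112 CPM in Tregs and to 433 and 101 CPM in Teffs. Krt71, a keratin of the inner root sheath of the hair, was at 0, 0, 687 and 0.143 CPM in Tregs and at 31.0 and 0 CPM in Teffs, so that in Treg 3 its level exceeded that of Krt17. Dermal fibroblast genes, 18 of 18 with a row, summed to 98.3, 384, 3470 and 194 CPM in Tregs and to 872 and 459 CPM in Teffs, and the sums outside Treg 3 included Thy1, which T cells express. Col3a1, a fibrillar collagen, was at 0.722, 1.76, 1450 and 0.713 CPM in Tregs and at 89.6 and 0 CPM in Teffs. T cell genes, 11 of 12 with a row, summed to 15500, 10900, 7870 and 13400 CPM in Tregs and to 14300 and 14500 CPM in Teffs, with the lowest value in Treg 3. Melanocyte genes (3 of 8 with a row) summed to 55.9, 84.3, 56.8 and 53.1 CPM in Tregs and to 46.1 and 72.5 CPM in Teffs. Endothelial genes (7 of 10) summed to 16.1, 40.3, 76.1 and 40.4 CPM in Tregs and to 91.6 and 122 CPM in Teffs. Macrophage and monocyte genes (9 of 10) summed to 171, 200, 191 and 564 CPM in Tregs and to 285 and 246 CPM in Teffs. Skeletal muscle genes (7 of 9) summed to 34.3, 270, 81.3 and 108 CPM in Tregs and to 42.5 and 40.7 CPM in Teffs. Of the mast cell list only Kit had a row, at 0, 0, 8.41 and 26.1 CPM in Tregs and 0.927 and 0 CPM in Teffs. None of these 5 sums was highest in Treg 3 over all libraries, and 0 of their tested genes were called. The melanocyte sum was mostly Pmel, at 33.7 CPM in Treg 3, and the endothelial sum mostly Pecam1, at 58.2 CPM there. Dct and Mitf had counts only in Treg 3, at 13 and 10.2 CPM, and in Teff 1, at 1.06 and 11.8 CPM. Of the 7 endothelial genes, 4 were highest in Treg 3, among them Cdh5 (7.89 CPM) and Eng (4.03 CPM), while Vwf had no counts there. The part of these cell types in the epidermal levels was not tested.

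**Figure D5:**
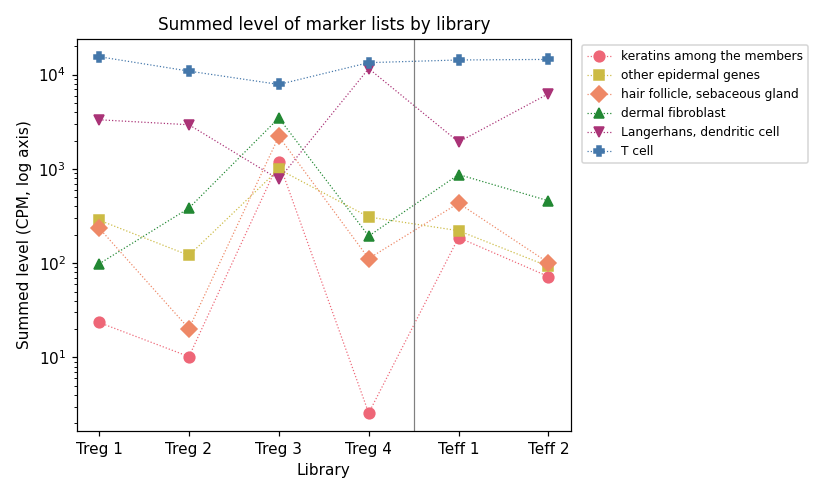
Summed level (CPM, log axis) of the keratins among the 37 genes and of marker lists in each library, with Tregs left and Teffs right of the grey line and dotted lines joining a list's points as a guide. Keratins, other epidermal, hair follicle and fibroblast genes are all highest in Treg 3, where the T cell and the Langerhans and dendritic cell sums are lowest.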

How the data were processed

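RNA from sorted skin Tregs (4 libraries) and Teffs (2 libraries) was sequenced from SMARTer low-input cDNA, per the labels' protocols. Per the submitters' processing notes, the build was mm10 and tools were HTSeq 0.6.1, SAMtools 0.1.19.0, Bowtie2 2.1.0.0, TopHat2 2.0.12 and CASAVA 1.8.2, with no order of steps. The authors deposited 1 table of 15109 rows with raw counts per gene in 6 columns. The authors also deposited their own log2 fold change and mean log2 CPM, and a p-value with its FDR, per the file headers. The 3 rows that name no gene (no feature, ambiguous, aligned to several places) held 88% to 90.2% of a column, 61.2% to 66.2% of it aligned to several places, and took no part in scaling or testing. An entry may be 1 of several alignments of a read. Genes with close copies can therefore be undercounted.

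The count test was edgeR 4.0.16 under R 4.3.3 (filterByExpr with a smallest count of 10, TMM, glmQLFit and glmQLFTest on group alone), with Benjamini-Hochberg adjustment over all 11775 genes tested. Fold changes are Treg over Teff, and the SE is the fold change divided by the root of its F statistic. The biological coefficient of variation was 1.2. Alternatives were DESeq2 1.42.0, other scalings and filters, a replicate block and left-out libraries, among which leaving out Treg 3 and Teff 1 together was added after seeing the data. Floors are 3 counts (0.397 to 0.581 CPM per library). Exon lengths and overlaps are from GENCODE M21, promoters from RefSeq. Levels were given for every gene, and fold changes for a fixed list of 20, of which 18 passed the filter, together with Pkp3, added after its values were seen. Of other lists, up to 4 genes with the highest mean were eligible to be named. Cd3e and the dendritic cell markers other than Cd74 were named outside that rule after their values were seen. The genes and lists were chosen with earlier results of these data known. Some items of the lists and 1 pair of sequences are not reported here.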

Additional observations from a re-analysis of the deposited data

Results flagged for a closer look

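In Tregs, 26 of the 37 genes had a highest library whose gap to the next, divided by the range of the 4 libraries, exceeded Dixon's 95% critical value for 4 samples, and in all of them that library was Treg 3. Of the 26 genes that passed the filter on low counts, 17 (65.4%) had Treg 3 this far above the other Tregs, against 1058 of all 11775 genes tested (8.99%). The nominal rate of chance flags is about 1 in 20 groups. The genes share libraries, and the ratio is near 1 for any gene at or near 0 in the other 3 libraries, whatever its level. The ratio rounded to 1 for 18 genes: Krt14, Krt17, Krt6a, Krt16, Dsg1a, Dsg3, Dsc3, Pkp1, Evpl, Itgb4, Lamb3, Lama3, Cldn4, Ivl, S100a14, Trp63, Grhl3 and Fgfr2. For Lamb3 and Cldn4 it rests on 1 count. The ratio was 0.999 for Krt5, 0.997 for Ppl, 0.995 for Dsp, 0.99 for Cdh1, 0.961 for Perp, 0.959 for Lgals7, 0.944 for Jup and 0.917 for Col17a1. The summed level of all 37 genes was flagged for the same library, with a ratio of 0.891.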

How the results depend on the processing

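No epidermal gene was called under any edgeR setting, and DESeq2 called 2 (Epcam and Dst). Over all genes, edgeR called 5 and DESeq2 218, with 19 under no filter, 1 with the replicate block, 0 at an adjusted p under 0.01, 0 without Treg 3 and Teff 1 together and 0 to 2 with 1 library left out (2 without Teff 1). Of 218 alternative fold changes of the 18 genes, 180 kept sign and call and 36 had the opposite sign, 16 of them on leaving out 1 library. Trp63 made up 4 of these 16, and its fold change in the main fit was 0 ± 3.3 (SE), so a change of its sign carries no weight. The causes were not tested. Replicate numbers 1 and 2 occur in both groups, but deviations of Treg 1 and Teff 1, and of Treg 2 and Teff 2, correlated at -0.0313 and 0.16 over genes, and those of Treg 3 and Teff 1 at 0.324. With 2 Teffs such deviations mirror each other, and the labels tie no libraries together, so the numbers were not taken as pairs. Under the replicate block, the fold changes that turned sign were -9.29 (Krt5), -7.98 (Krt14), -3.20 (Krt15), -11.34 (Krt17), -0.31 (Krt79), -8.08 (Jup), -2.84 (Sfn) and -3.96 (Lgals7), on libraries that exclude Treg 3 and Treg 4. Epcam, Dst and Itga6 were at 5.67, 3.65 and 1.09. Without Treg 3 and Teff 1 together those that turned sign were -7.11 (Krt5), -7.09 (Krt14), -1.36 (Krt15), -10.37 (Krt17), -0.35 (Krt79), -1.78 (Jup), -2.06 (Cldn1), -0.66 (Sfn), -0.49 (Lgals7) and -4.04 (Col17a1). Epcam, Dst, Itga6 and Perp were at 6.78, 5.44, 1.75 and 6.02. With 1 library left out, log2 fold changes spanned -7.56 to 1.98 (Krt5), -8.95 to 2.99 (Krt14), -0.97 to 1.31 (Krt15), -11.51 to 2.28 (Krt17), -0.38 to 1.09 (Krt79), -2.09 to 2.11 (Jup), -2.49 to 10.29 (Perp), -1.11 to 4.5 (Cldn1), -0.78 to 1.18 (Sfn), -1.89 to 2.91 (Lgals7), -0.90 to 6.85 (Col17a1) and -1.09 to 8.75 (Trp63). Dsp spanned 1.85 to 4.88 and S100a14 0.50 to 6.56, each lowest without Teff 2 and highest without Teff 1. The lowest of the others were without Treg 3, except for Col17a1 (without Teff 1) and Trp63 (without Teff 2), and the highest values of Perp and Trp63 were without Teff 1. Trp63 was at 0.03 with DESeq2 size factors and 0.04 in DESeq2, both counted among the 36. With a single Teff library left, its spread is assumed to be that of the Tregs. A gene with 0 counts in a library may still be present at a level below the floor of 3 counts, and a level resting on 3 counts or fewer is uncertain.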
